A study of Rattus norvegicus with 6 samples.

Results

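Nuclear pore proteins build the channels through the nuclear envelope, and nuclear transport receptors carry proteins and RNAs through them. The genes described here were chosen by their annotated symbols: nucleoporins named Nup and a number, importins, transportins and exportins, the proteins of the Ran cycle, and the pore proteins Ndc1, Pom121, Seh1l, Sec13, Aaas and Tpr. The rule found 56 genes, measured by 88 probe sets, among the 14217 genes with 1 listed symbol in a table of 31099 rows. The group was taken up with earlier results of the same tamoxifen against vehicle contrast known. Its counts and differences in that contrast are therefore a description, and nothing is supported by how many members passed a test.

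The study measured gene expression on Affymetrix rat arrays in primary Schwann cells, the glia that ensheath peripheral axons, from rat sciatic nerve. Every culture in both groups carried RafER, a Raf kinase fused to a hormone-binding domain so that tamoxifen switches it on. The vehicle group (3 arrays) received EtOH and the tamoxifen group (3 arrays) received tamoxifen, each for 24 h, in a minimal medium without serum. The cultures came from 3 independent experiments per the design text. The sources used here do not give the promoter that drives RafER, the number of animals or their age. The source labels speak of treated rats, whereas the design text describes treatment of the cultures, and the design text was followed here. Since no culture lacking RafER entered the comparison, tamoxifen itself and Raf activity cannot be told apart as sources of a difference.

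Transport through the pore is driven by the small GTPase Ran. Import receptors bind cargo in the cytoplasm and release it when they meet Ran-GTP in the nucleus, while exportins bind their cargo together with Ran-GTP and release it once the GTP is hydrolysed outside. The pore itself is a stack of scaffold rings around a channel filled with nucleoporins rich in phenylalanine-glycine (FG) repeats, with filaments on the cytoplasmic face and a basket on the nuclear face. In dividing cells pores and receptors have to be made anew for the daughter nuclei, and the envelope of vertebrate cells is taken apart and rebuilt at mitosis.

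All values are log2 expression levels, and a difference is the tamoxifen mean minus the vehicle mean. A gene with several probe sets is given by the one with the highest mean over the 6 arrays unless stated. A difference passed when its adjusted p in the limma fit over all 31042 probe sets that are not manufacturer controls was under 0.05. The 3 arrays in each group limit the precision, and the p-values set each difference against the spread between these cultures. Unless a block for the experiment is named, the fit did not pair the arrays. In cultures measured in bulk, a change in the share of cells of one kind and a change in RNA per cell cannot be told apart.

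Of the 56 genes, 26 were higher with tamoxifen and passed, by 0.40 to 1.81, and 0 were lower and passed. Of all genes on the array, 13.9% passed as higher and 17.3% as lower. The median difference was 0.44 over the 56 genes and 0.01 over all genes. A difference above 0 was found for 44 of the 56 genes and for 51.7% of all genes. The 3 tamoxifen arrays lay above all 3 vehicle arrays for 37 of the 56 genes, a pattern that 23.7% of all genes had. The reverse held for 3 of the 56, against 25.4% of all genes. The other 30 genes had differences between -0.46 and 0.51.

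Without adjustment, 33 members had a p under 0.05 as higher in limma and 2 as lower, which were Tpr and Kpna1. Of all genes, 19.8% did so as higher and 23.6% as lower. With a block for the experiment number, 27 were higher and 1 (Tpr) was lower. Without vehicle array 3, 1 member (Ipo8, by -0.61 with an adjusted p of 0.0413 in limma) was lower. In a limma test against a minimum fold of 1.5, 7 members passed: Ipo4, Ipo5, Ipo7, Kpnb1, Ran, Nup43 and Nup93. Passing shares of all genes are given for the main fit of all 6 arrays without a block, and not for these settings. In each of the 3 experiments the tamoxifen value was above the vehicle value for 40 of the 56 members, against 31.7% of all genes. All 26 members that passed were among the 40, which passing as higher largely fixes. Tamoxifen array 3 held the highest of the 6 values for 22 of these 26 and tamoxifen array 2 for the other 4. How often that array was highest among other genes is not given.

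**Figure D1:**
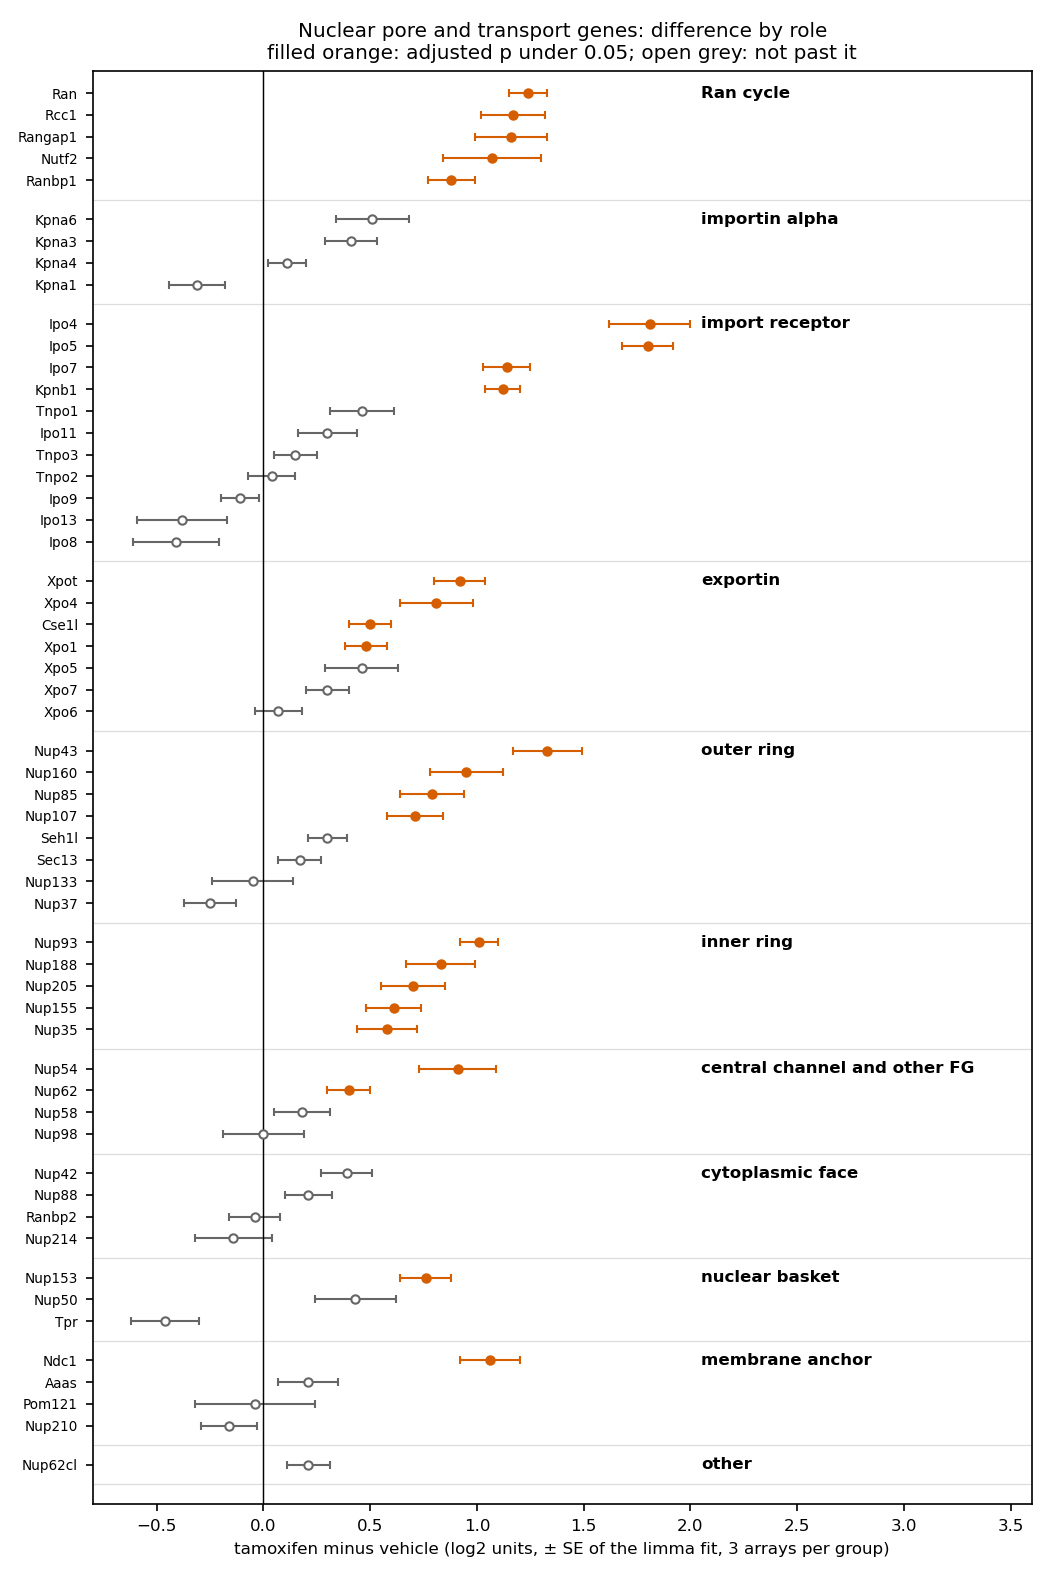
Difference between tamoxifen and vehicle (log2 units, horizontal axis) for each of the 56 genes, grouped by role; points are the differences of 3 against 3 arrays and bars are ± 1 standard error of the limma fit. Every Ran cycle and inner ring gene lies to the right of 0 and is filled (passed), whereas no importin alpha or cytoplasmic face gene is.

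The roles differed in how many members passed. All 5 Ran cycle genes and all 5 inner ring genes were higher, with medians of 1.16 and 0.70. Of the 11 import receptors 4 were higher, of the 7 exportins 4, and of the 8 outer ring genes 4. The central channel group had 2 of 4, the nuclear basket 1 of 3 and the membrane-anchored group 1 of 4. Of all genes, 13.9% passed as higher and 17.3% as lower. Roles with so few genes cannot be set closely against these shares. None of the 4 measured importin alpha genes and none of the 4 cytoplasmic face genes passed in the limma fit. Kpna3 and Nup42, which belong to these roles, passed in several of the alternative settings. At an unadjusted p under 0.05 in limma, 2 importin alpha genes were higher and 1 was lower, and 1 cytoplasmic face gene was higher. The shares of all genes at that threshold were 19.8% higher and 23.6% lower. Differences between roles were not tested.

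The plot of member levels by array shows the same genes on each culture. The arrays correlated at 0.984 to 0.995 within a group and 0.934 to 0.966 between groups over all probe sets. On vehicle array 1 the signal of the control transcripts Gapdh, beta-actin and hexokinase fell off more towards their 5′ ends than elsewhere: the 3′ probe sets exceeded the 5′ ones by a mean of 0.84 there and of 0.16 to 0.27 on the other 5 arrays. Of the 56 probe sets used, 3 were at least 0.5 lower and 4 at least 0.5 higher on vehicle array 1 than on the mean of the other 2 vehicle arrays. Of the 32 further probe sets of members, 10 were at least 0.5 lower there and 2 at least 0.5 higher. Without vehicle array 1, 26 members were higher and 0 lower.

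**Figure D2:**
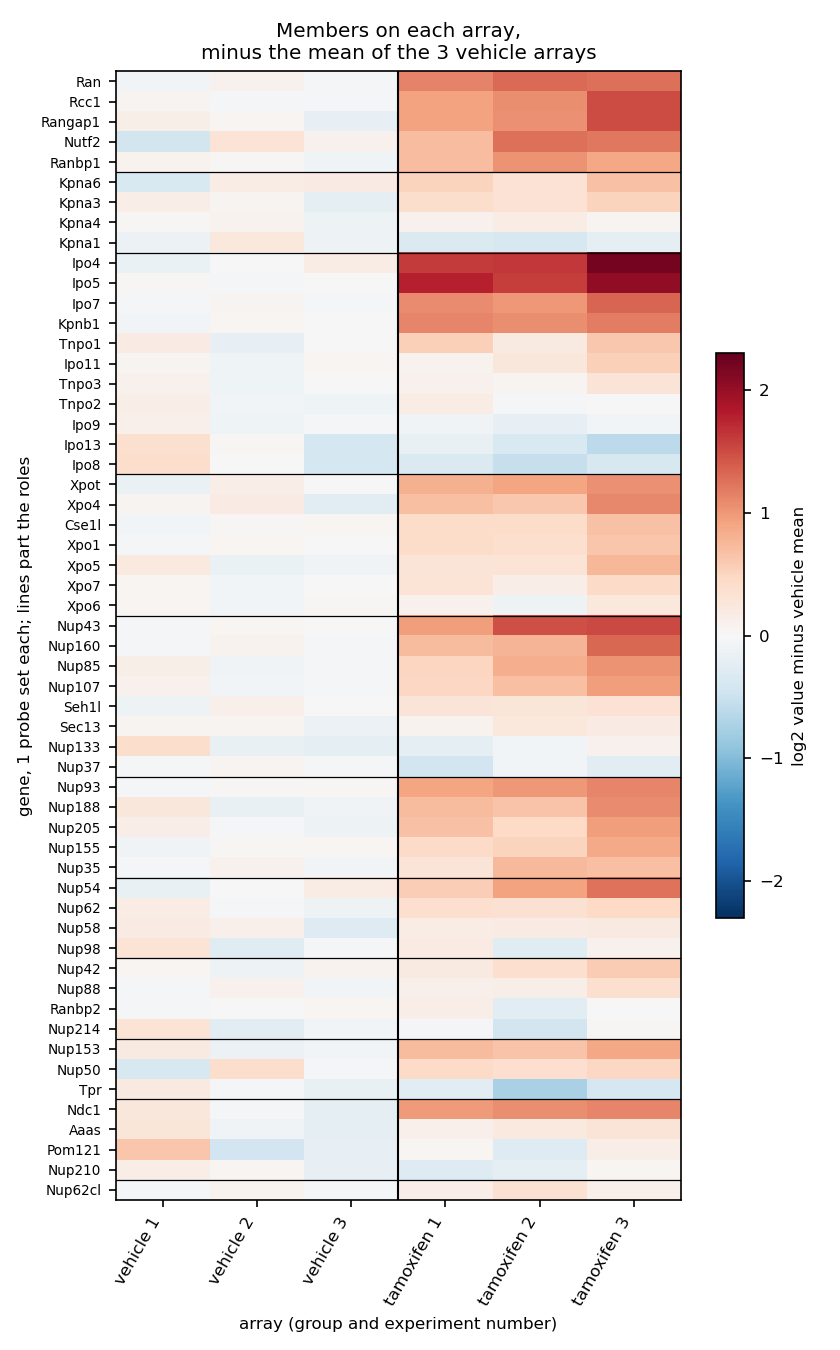
Level of each of the 56 genes on each of the 6 arrays (columns), as the log2 value minus the mean of the 3 vehicle arrays; red is above and blue below that mean, and lines part the roles. The 3 tamoxifen columns are red for most genes, most deeply for Ipo4 and Ipo5, and pale or blue for Tpr, Ipo8, Ipo13 and Kpna1.

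Since the members that passed moved in 1 direction, their promoters were searched for short motifs. RefSeq promoters (GRCr8 assembly, 250 bases before to 50 after the start) were found for 49 of the 56 genes. Kpna1, Kpna3, Kpnb1, Ndc1, Nup107, Xpo7 and Xpot had no entry in the table. The E-box CACGTG, the core bound by Myc and Max and by other factors with a basic helix-loop-helix, occurred in 8 of the 49 promoters (16.3%). It occurred in 6.65% of all 27457 promoters of that length and in 8.94% of the 11701 that belong to genes on the array. It was found in 5 of 22 members that were higher (Ran, Ipo4, Ipo7, Nup188 and Nup54) and in 3 of 27 that did not pass (Ranbp2, Nup50 and Seh1l). The stretches of 80 bases below show it before the start of 4 members that were higher and, for comparison, of 2 of the 3 that did not pass. They read 5′ to 3′ on the strand of the gene, with the E-box in capitals.
Ran (chr12:33314438-33314517, minus strand): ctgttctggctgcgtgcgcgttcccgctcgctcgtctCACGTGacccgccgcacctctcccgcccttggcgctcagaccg
Ipo7 (chr1:173497347-173497426, plus strand): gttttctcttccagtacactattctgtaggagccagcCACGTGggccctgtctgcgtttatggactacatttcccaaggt
Nup188 (chr3:33957732-33957811, plus strand): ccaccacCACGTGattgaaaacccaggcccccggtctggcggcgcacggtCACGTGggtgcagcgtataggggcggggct
Nup54 (chr14:15901840-15901919, plus strand): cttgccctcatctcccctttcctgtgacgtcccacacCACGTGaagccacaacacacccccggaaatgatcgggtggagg
Ranbp2 (chr20:26985134-26985213, plus strand): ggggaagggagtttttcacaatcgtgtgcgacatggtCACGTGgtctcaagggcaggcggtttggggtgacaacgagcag
Nup50 (chr7:117927651-117927730, plus strand): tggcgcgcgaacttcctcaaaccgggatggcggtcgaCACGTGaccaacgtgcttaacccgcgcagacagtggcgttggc

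In Nup188 the motif occurred at 2 places, starting 73 and 30 bases before the start of the gene. In Ran it began 190 bases before the start, in Ipo7 88, in Nup54 157, in Ranbp2 143 and in Nup50 194. In Ipo4 it lay after the start. The GC box GGGCGG occurred in 61.2% of the member promoters and 57.5% of those of array genes, and CCAAT in 46.9% and 37.3%. The motif CCGGAAGT, bound by ETS factors, several of which are targets of ERK, occurred in 5 member promoters (10.2%, against 6.82% of those of array genes). The E2F motif (TTTCGCGC or TTTGGCGC) occurred in 3 (6.12% against 1.32%), the NRF1 motif CGCATGCG in 3 (6.12% against 3.09%) and the CRE TGACGTCA in 4 (8.16% against 2.85%). Unlike the E-box, none of these was more frequent in the 22 higher members than in the 27 that did not pass. The GC box was in 12 and 18 of them, CCAAT in 8 and 15, and the ETS motif in 2 and 3. For E2F the counts were 1 and 2, for NRF1 0 and 3, and for the CRE 1 and 3. Both strands were searched, no motif lies inside another, and neighbouring matches were allowed to overlap. These matches describe letters in a window and were not tested against the expression differences.

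The Ran cycle was higher as a whole. Ran, the GTPase itself, had log2 levels of 12.11, 12.26 and 12.14 on the vehicle arrays and 13.31, 13.47 and 13.44 on the tamoxifen arrays. The difference was 1.24 ± 0.09 (SE, n = 3 per group), a 2.36-fold change with an adjusted p of 0.000494 in limma. The 3 experiments gave nearly the same difference, between 1.20 and 1.30, and the groups were far apart.

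Rcc1, the chromatin-bound exchange factor that loads Ran with GTP in the nucleus, was at 8.05, 7.95 and 7.95 with vehicle and at 8.91, 9.05 and 9.48 with tamoxifen. Its difference was 1.17 ± 0.15 (adjusted p of 0.00295 in limma). Rangap1, which makes Ran hydrolyse its GTP on the cytoplasmic side, was at 9.59, 9.49 and 9.26 with vehicle and at 10.38, 10.49 and 10.95 with tamoxifen, a difference of 1.16 ± 0.17 (adjusted p of 0.00429 in limma). The exchange factor and the activating protein, which act on Ran in opposite ways, thus had differences of about the same size, and in both the highest value was on tamoxifen array 3.

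Ranbp1, which binds Ran-GTP and helps Rangap1 to act on it, was at 6.06, 6.01 and 5.89 with vehicle and at 6.69, 7.02 and 6.87 with tamoxifen. The difference was 0.88 ± 0.11 (adjusted p of 0.00264 in limma). Its signal was low for this group, and RMA compresses low values. Nutf2, the factor that brings Ran-GDP back into the nucleus, was at 9.68, 10.42 and 10.20 with vehicle and at 10.81, 11.37 and 11.31 with tamoxifen. The groups did not overlap, but vehicle array 1 lay well below the other 2. The difference of 1.07 ± 0.23 passed (adjusted p of 0.0165 in limma) and no longer did without tamoxifen array 2 (0.96, adjusted p of 0.0642) or tamoxifen array 3 (0.99, adjusted p of 0.0606). A second Nutf2 probe set, with less spread, gave 0.99 ± 0.13 and passed, and a second, dimmer Rangap1 probe set gave 0.37 ± 0.08 and passed.

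**Figure D3:**
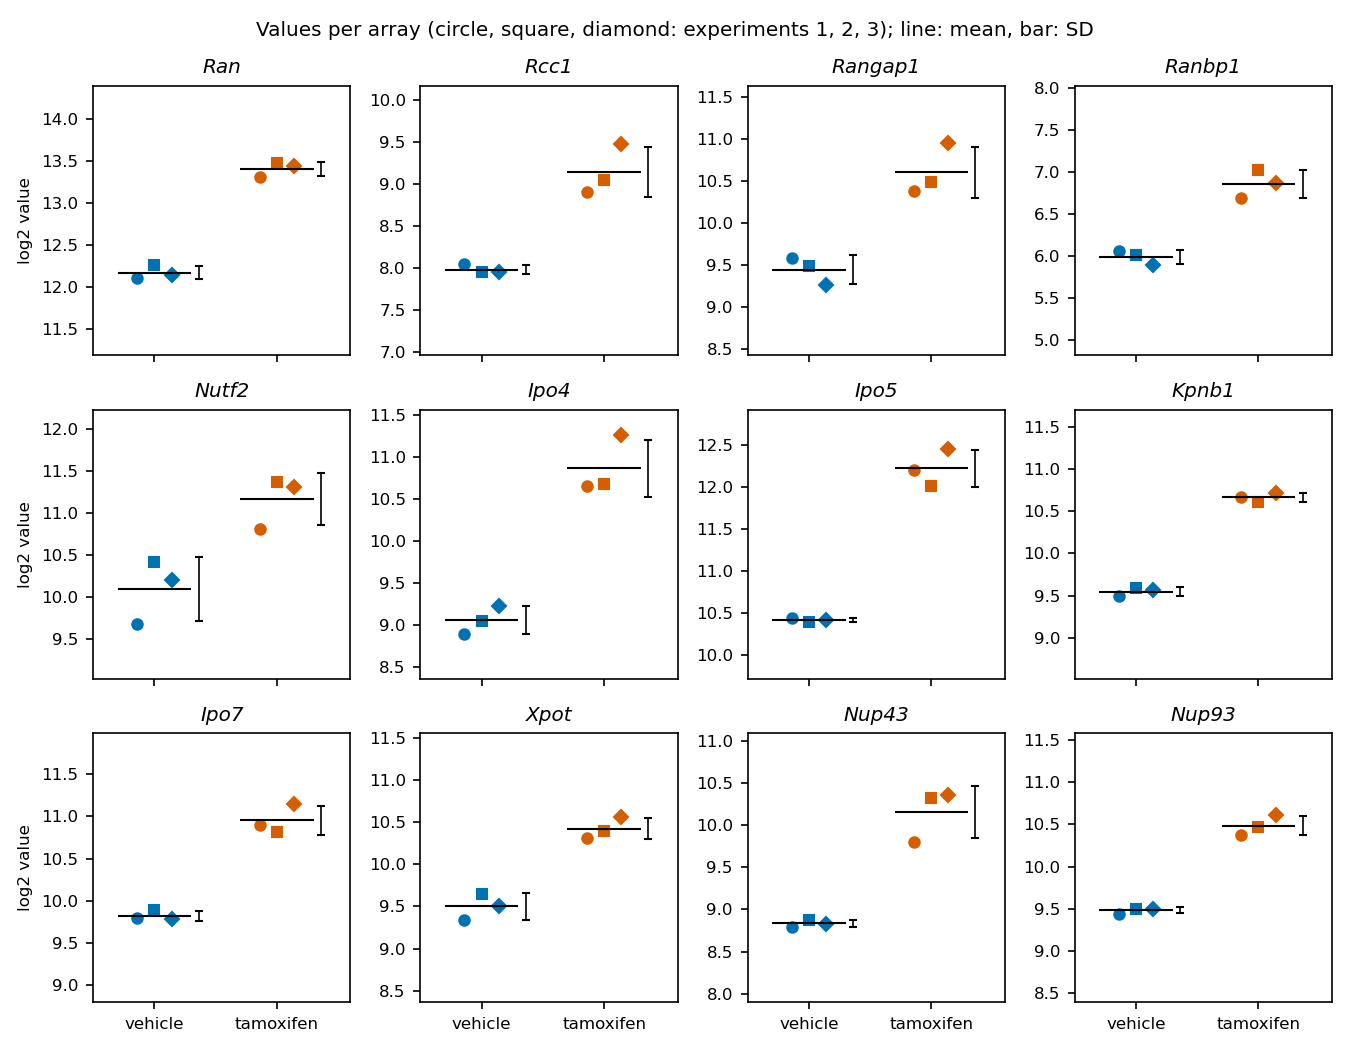
Log2 level of 12 members on each array, with vehicle and tamoxifen side by side; points are single arrays (circle, square and diamond for experiments 1, 2 and 3), lines are the means of 3 and bars are ± 1 SD. All 12 had passed as higher, which largely fixes that in each panel all 3 tamoxifen values lie above all 3 vehicle values. Over all genes 23.7% had that pattern. Each panel has its own vertical axis, so heights are not to be compared between genes.

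Among the import receptors of the importin beta family, 4 of 11 were higher, each by more than 1 log2 unit. Ipo4, a receptor for histones and ribosomal proteins, had the largest difference of all 56 genes on these probe sets. It was at 8.90, 9.05 and 9.23 with vehicle and at 10.66, 10.68 and 11.26 with tamoxifen, a difference of 1.81 ± 0.19 or 3.5-fold (adjusted p of 0.00134 in limma). Ipo5, which also imports ribosomal proteins and histones, was at 10.44, 10.39 and 10.42 with vehicle and at 12.20, 12.01 and 12.45 with tamoxifen. Its difference was 1.80 ± 0.12 (adjusted p of 0.000378 in limma). The vehicle arrays of Ipo5 had an SD of 0.02, and the gap between the groups was many times that. Ipo7, a receptor for ribosomal proteins and other cargoes, was at 9.79, 9.89 and 9.78 with vehicle and at 10.90, 10.82 and 11.15 with tamoxifen, a difference of 1.14 ± 0.11 (adjusted p of 0.00112 in limma).

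Kpnb1 (importin beta-1), the receptor of classical import and the partner of the importin alphas, was higher by 1.12 ± 0.08 (adjusted p of 0.000475 in limma). Its mean rose from 9.55 ± 0.05 (SD, n = 3) to 10.67 ± 0.05, and the 3 experiments gave 1.18, 1.03 and 1.16. A second Kpnb1 probe set gave 1.31 ± 0.16 and passed. The other 2 probe sets of Ipo5 also passed, with 0.86 ± 0.19 and 2.39 ± 0.35, and the second of these was low on vehicle array 1 (7.30 against 8.70 and 8.43).

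The remaining 7 import receptors did not pass and lay on both sides of 0. Tnpo1 (transportin 1), which imports hnRNP proteins, had a difference of 0.46 ± 0.15 (adjusted p of 0.0683 in limma, or 0.0273 with a block for the experiment). Its tamoxifen values of 11.00, 10.65 and 11.07 lay just above its vehicle values of 10.63, 10.27 and 10.45. Its 2 dimmer probe sets passed. The first was at 8.61, 8.64 and 8.42 with vehicle and at 9.15, 9.09 and 9.39 with tamoxifen (0.65 ± 0.12), and the second at 7.24, 8.13 and 7.73 and at 8.79, 8.69 and 9.15 (1.18 ± 0.24). Both had groups that did not overlap, and the second was lowest on vehicle array 1. Ipo11 had 0.30 ± 0.14, Tnpo3, the receptor of SR splicing factors, 0.15 ± 0.10, and Tnpo2 0.04 ± 0.11. Ipo9 had -0.11 ± 0.09, Ipo13, which works in both directions, -0.38 ± 0.21, and Ipo8 -0.41 ± 0.20. Ipo8 is the closest relative of Ipo7 in the family. The Ipo8 arrays spread from 9.68 to 10.49 with vehicle and from 9.56 to 9.76 with tamoxifen, so that the groups overlapped, and a second Ipo8 probe set had 0.24 ± 0.16.

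The 4 importin alpha genes, the adaptors that bind classical nuclear localisation signals and hand them to Kpnb1, did not pass. Kpna1, the brightest of these probe sets, was at 11.36, 11.75 and 11.39 with vehicle and at 11.17, 11.13 and 11.27 with tamoxifen. The tamoxifen values lay below the vehicle values by a narrow gap, and the difference was -0.31 ± 0.13 (adjusted p of 0.134 in limma). The other 2 Kpna1 probe sets had -0.40 ± 0.18 and -0.45 ± 0.15 and did not pass either. Kpna3 had 0.41 ± 0.12 and stood nearest to the threshold of the members that did not pass (adjusted p of 0.0506 in limma). It passed without vehicle array 1 (0.49, adjusted p of 0.0365). Kpna3 also passed with quantile normalization, cyclic loess, a filter on dim probe sets, array weights or averaged probe sets (adjusted p of 0.0309 to 0.0472 in limma). Kpna3 has 1 probe set, so the filter and the averaging left its difference at 0.41 and changed only the adjusted p. Kpna6 had 0.51 ± 0.17 and Kpna4 0.11 ± 0.09.

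All 7 exportins had a difference above 0, as 51.7% of all genes did, and 4 passed, against 13.9% of all genes. Xpot, the exporter of tRNAs, was at 9.34, 9.65 and 9.51 with vehicle and at 10.31, 10.40 and 10.56 with tamoxifen. The difference was 0.92 ± 0.12 (adjusted p of 0.00261 in limma). Xpo4 was at 8.29, 8.41 and 7.96 with vehicle and at 8.92, 8.84 and 9.32 with tamoxifen, a difference of 0.81 ± 0.17 (adjusted p of 0.0163 in limma). Its 3 experiments differed, from 0.43 in experiment 2 to 1.36 in experiment 3. Its other 2 probe sets passed, with 1.05 ± 0.25 and 0.50 ± 0.15. Cse1l, the exportin that returns importin alphas to the cytoplasm, was at 10.71, 10.79 and 10.81 with vehicle and at 11.19, 11.19 and 11.44 with tamoxifen, a difference of 0.50 ± 0.10 (adjusted p of 0.0129 in limma).

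Xpo1 (CRM1), the exporter of proteins with leucine-rich export signals, was at 10.44, 10.53 and 10.46 with vehicle and at 10.90, 10.87 and 11.12 with tamoxifen. The groups did not overlap, and the difference of 0.48 ± 0.10 passed (adjusted p of 0.0135 in limma). A second Xpo1 probe set was at 10.38, 10.16 and 10.07 with vehicle and at 10.45, 10.26 and 10.39 with tamoxifen, with overlap, and its difference of 0.16 ± 0.11 did not pass. Xpo5, the exporter of microRNA precursors, had 0.46 ± 0.17 and 0.60 ± 0.21 on its 2 probe sets, and neither passed. The brightest Xpo7 probe set was at 10.33, 10.22 and 10.28 with vehicle and at 10.59, 10.43 and 10.72 with tamoxifen, a difference of 0.30 ± 0.10 (adjusted p of 0.0757 in limma). A second one, at 8.50, 8.71 and 8.79 against 9.02, 9.02 and 9.29, passed with 0.44 ± 0.12. Neither had overlapping groups, and only the second passed. The last had 0.83 ± 0.39 with a low value on vehicle array 1 (6.42 against 7.79 and 7.64). Xpo6, the exporter of actin, had 0.07 ± 0.11. Without both arrays of experiment 1, Cse1l (0.51, adjusted p of 0.0521), Xpo1 (0.50, adjusted p of 0.0566) and Xpo4 (0.89, adjusted p of 0.058) no longer passed in limma, with differences as large as before.

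The outer ring of the pore scaffold, or Y complex, was divided. Nup43 was at 8.79, 8.88 and 8.83 with vehicle and at 9.80, 10.32 and 10.36 with tamoxifen, a difference of 1.33 ± 0.16 (adjusted p of 0.00223 in limma), the largest of any pore protein on the brightest probe sets. Nup160 was at 8.69, 8.81 and 8.70 with vehicle and at 9.47, 9.52 and 10.06 with tamoxifen, a difference of 0.95 ± 0.17 (adjusted p of 0.00799 in limma). Nup85 was at 8.43, 8.22 and 8.25 with vehicle and at 8.80, 9.14 and 9.33 with tamoxifen, a difference of 0.79 ± 0.15 (adjusted p of 0.0109 in limma). In all of these the groups were clearly apart. Nup107 was higher by 0.71 ± 0.13.

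The other 4 outer ring genes did not pass. Nup133, the direct partner of Nup107 in the stem of the Y, had a difference of -0.05 ± 0.19, with a vehicle array 1 value of 9.30 above all other arrays. Nup37 had -0.25 ± 0.12, with all 3 tamoxifen values below all 3 vehicle values. Sec13, which also serves in the coat of vesicles that leave the endoplasmic reticulum, had 0.17 ± 0.10. Seh1l, which shares a second complex in nutrient signalling, was at 10.72, 10.96 and 10.84 with vehicle and at 11.14, 11.11 and 11.17 with tamoxifen. The groups were apart, and the difference of 0.30 ± 0.09 did not pass (adjusted p of 0.0591 in limma). Its dimmer probe set was at 6.59, 7.75 and 7.34 with vehicle, lowest on vehicle array 1, and at 8.16, 8.24 and 8.39 with tamoxifen, and it passed with 1.04 ± 0.28.

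The 5 inner ring genes, which hold the scaffold to the membrane and anchor the channel, all passed. Nup93, the hub of this ring, was at 9.44, 9.50 and 9.50 with vehicle and at 10.38, 10.47 and 10.61 with tamoxifen. The difference was 1.01 ± 0.09, or 2.01-fold (adjusted p of 0.000909 in limma). Nup188 was at 8.51, 8.09 and 8.17 with vehicle and at 8.99, 8.92 and 9.35 with tamoxifen, a difference of 0.83 ± 0.16 (adjusted p of 0.0116 in limma). Its paralog Nup205 was at 10.30, 10.11 and 10.02 with vehicle and at 10.82, 10.61 and 11.11 with tamoxifen, a difference of 0.70 ± 0.15 (adjusted p of 0.0158 in limma). Neither paralog's groups overlapped, and each had its highest value on tamoxifen array 3.

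Nup155 was higher by 0.61 ± 0.13 and Nup35, a membrane-binding member of the ring, by 0.58 ± 0.14. The Nup35 call (adjusted p of 0.0258 in limma) depended on which arrays were used. Its adjusted p rose above the threshold without vehicle array 1 (0.0555), vehicle array 2 (0.0506), vehicle array 3 (0.0747), tamoxifen array 2 (0.0876) or tamoxifen array 3 (0.0871), with differences of 0.49 to 0.62.

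Of the FG nucleoporins of the central channel, Nup54 was at 8.21, 8.40 and 8.55 with vehicle and at 8.95, 9.31 and 9.63 with tamoxifen. The difference was 0.91 ± 0.18 (adjusted p of 0.0136 in limma, or 0.0514 without tamoxifen array 2). Nup62, its partner in the channel, was at 9.96, 9.75 and 9.67 with vehicle and at 10.18, 10.14 and 10.25 with tamoxifen. This was the smallest difference that passed, 0.40 ± 0.10 (adjusted p of 0.0314 in limma), and the gap between the groups was narrow. It no longer passed when vehicle array 2, vehicle array 3 or any of the 3 tamoxifen arrays was left out, with adjusted p of 0.0765 to 0.0984, or after median centring of the arrays (0.0525).

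Nup58, the last partner in this complex, depended on the probe set. Its brightest one was at 9.65, 9.58 and 9.18 with vehicle and at 9.64, 9.65 and 9.67 with tamoxifen, a difference of 0.18 ± 0.13. The groups overlapped there. Its dimmest was at 3.83, 5.12 and 4.81 with vehicle and at 6.41, 6.87 and 7.47 with tamoxifen, a difference of 2.33 ± 0.39 that passed (adjusted p of 0.0068 in limma). Its vehicle level (mean 4.59) is low enough to be background, so the size of that difference is uncertain. Without vehicle array 1 it was 1.95. The remaining 2 had 0.48 ± 0.17 and 0.26 ± 0.28. Nup98, whose repeats also line the channel, had 0.00 ± 0.19 and, on a dimmer probe set, 0.23 ± 0.11.

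None of the 4 genes of the cytoplasmic face passed. Nup88, the brightest probe set here, was at 10.62, 10.75 and 10.59 with vehicle and at 10.77, 10.79 and 11.03 with tamoxifen, a narrow separation with a difference of 0.21 ± 0.11. Its binding partner Nup214 had -0.14 ± 0.18. Ranbp2, the large filament protein that holds Rangap1 at the pore, had -0.04 ± 0.12, and its other 3 probe sets had -0.04, -0.19 and -0.30. Nup42, a partner in mRNA release, had 0.39 ± 0.12 (adjusted p of 0.0613 in limma) and passed without tamoxifen array 1 (0.48, adjusted p of 0.0417). It also passed with quantile normalization, cyclic loess, array weights or averaged probe sets (adjusted p of 0.0354 to 0.0451 in limma). Nup42 has 1 probe set, so the averaging left its difference at 0.39 and changed only the adjusted p. The Ranbp2 values differ from those of Rangap1, Ran and Ranbp1, the proteins that it works with at the pore, and this contrast between genes was not tested.

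In the nuclear basket, Nup153 was at 9.47, 9.13 and 9.20 with vehicle and at 10.00, 9.92 and 10.15 with tamoxifen. The difference was 0.76 ± 0.12 (adjusted p of 0.0056 in limma), and the groups did not overlap. Nup50, its partner, had 0.43 ± 0.19, with a low value of 7.09 on vehicle array 1, and passed only without vehicle array 2 among the arrays left out (0.63, adjusted p of 0.0251). Tpr, the coiled-coil protein of the basket filaments, was at 10.49, 10.24 and 10.12 with vehicle and at 10.04, 9.53 and 9.90 with tamoxifen. Its difference of -0.46 ± 0.16 was the most negative of the 56 and did not pass (adjusted p of 0.0874 in limma), but did with a block for the experiment (adjusted p of 0.049). Its 2 dimmer probe sets had 0.58 ± 0.44 and -0.03 ± 0.33, each with a low value on vehicle array 1 (6.30 against 8.19 and 7.33, and 7.14 against 8.32 and 8.16).

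Of the membrane-anchored group, Ndc1, a transmembrane protein that ties the scaffold to the envelope, was at 9.93, 9.63 and 9.44 with vehicle and at 10.65, 10.73 and 10.79 with tamoxifen. The difference was 1.06 ± 0.14 (adjusted p of 0.00275 in limma), and the SD of the tamoxifen arrays was 0.07. Aaas (aladin), which Ndc1 holds at the pore, had 0.21 ± 0.14. The transmembrane proteins Pom121 and Nup210 had -0.04 ± 0.28 and -0.16 ± 0.13. Pom121 was at 9.57 on vehicle array 1 and at 8.49 and 8.74 on the other vehicle arrays. The Nup210 level was 5.65 with vehicle and that of Nup62cl, a relative of Nup62, 4.58. The table has no detection calls, so levels this low may be background. Nup62cl had 0.21 ± 0.10 and did not pass.

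Of the 88 probe sets of members, 38 were higher and 0 were lower, against 11.5% and 12.9% of all probe sets, and 47 and 4 had an unadjusted p under 0.05 in limma, against 17.6% and 18.5% of all probe sets. The 3 tamoxifen values lay above all vehicle values for 52 of the 88 and below for 5, against 22.2% and 20.2% of all probe sets. Several probe sets were listed for 21 genes, and in 5 of them (Nup58, Seh1l, Tnpo1, Xpo1 and Xpo7) some passed and some did not. No gene had probe sets that passed in opposite directions. In Nup58, Seh1l, Tnpo1 and Xpo7 a dimmer probe set passed and the brightest did not, while in Xpo1 the brightest did. When the log2 values of a gene's probe sets were averaged, 32 of the 56 genes were higher. The share of all genes under that setting is not given.

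**Figure D4:**
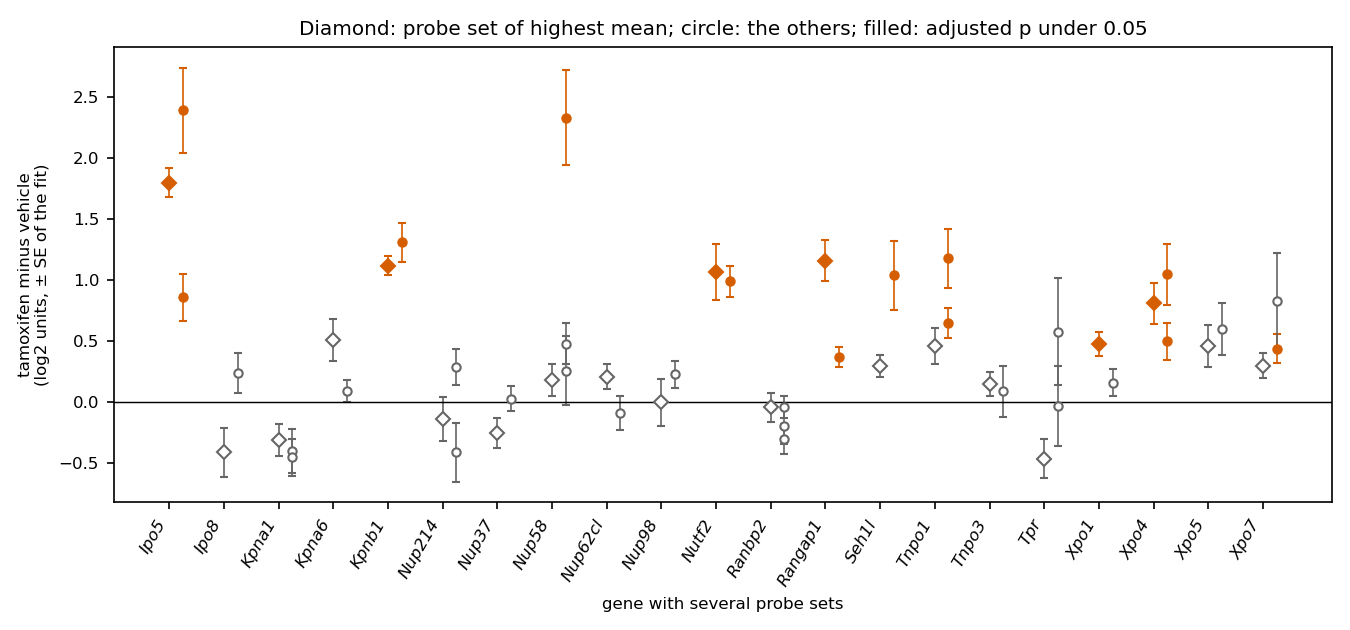
Difference between tamoxifen and vehicle (log2 units, vertical axis) for every probe set of the 21 genes with several; diamonds are the probe sets of highest mean level, circles the others, filled symbols passed, and bars are ± 1 standard error of the limma fit. The dimmest Nup58 probe set, at 2.33, stands far above the other 3 of that gene, and all probe sets of Ipo5, Kpnb1, Nutf2, Rangap1 and Xpo4 are filled.

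Other genes of nuclear transport and the envelope moved in both directions. Of 24 listed genes of mRNA export 23 were measured, of which 8 were higher and 2 lower. Over all genes on the array, 13.9% passed as higher and 17.3% as lower. The median difference of the list was 0.11. Ddx39a, a helicase that loads export factors, was higher by 1.46 ± 0.14, Nxt1, the partner of the export receptor Nxf1, by 1.28 ± 0.21, and the adaptor Alyref by 1.21 ± 0.12. Nxf1 itself had -0.04 ± 0.12. Pcid2 was lower by -0.55 ± 0.08 and Gle1, which works with the cytoplasmic filaments of the pore, by -0.41 ± 0.10. Gle1 (adjusted p of 0.0235 in limma) no longer passed without vehicle array 1 (0.0501) or any 1 tamoxifen array (0.0514 to 0.0767). Without vehicle array 3, tamoxifen array 2 or tamoxifen array 3, 5 of the list were higher in each case.

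Of 20 genes of the nuclear lamina and envelope 19 were measured, of which 8 were higher and 3 lower. These compare with 13.9% and 17.3% of all genes, and the median of the list was 0.31. Lmnb1, a B-type lamin, was higher by 2.10 ± 0.16, from 8.98 ± 0.26 (SD, n = 3) to 11.08 ± 0.18, a larger difference than that of any member on its brightest probe set. The lamin B receptor Lbr was higher by 1.15 ± 0.17 and Syne1, a nesprin of the outer membrane, by 1.11 ± 0.14. Of the 3 dimmer Syne1 probe sets 1 passed (0.53). The nesprin Syne2 was lower by -1.49 ± 0.30, the inner membrane protein Tmem43 by -1.17 ± 0.18 and Sun1, which links nesprins to the lamina, by -0.39 ± 0.09. Syne2 did not pass without tamoxifen array 3 (-1.42, adjusted p of 0.0513 in limma), nor Sun1 without vehicle array 2 (0.0557), tamoxifen array 2 (0.0763) or tamoxifen array 3 (0.0617).

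Of 19 listed symbols for other partners of Ran, the receptors and the pore, 14 were measured, 4 of them higher and 1 lower. The listed symbols not found include Nupl1 and Nupl2, which are earlier symbols of the members Nup58 and Nup42. Over all genes the shares were 13.9% and 17.3%, and the median of the list was 0.12. Rangrf (Mog1), a Ran-binding protein, was higher by 1.64 ± 0.26, Nmd3, the adaptor for export of the large ribosomal subunit, by 0.83 ± 0.10, and Ahctf1 (ELYS), which seeds pores on chromatin, by 0.72 ± 0.14. Of the 2 other Ahctf1 probe sets 1 passed (0.76) and 1 did not (0.33). Ranbp10 was lower by -0.66 ± 0.13 and did not pass without tamoxifen array 2 (-0.62, adjusted p of 0.0535 in limma).

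**Figure D5:**
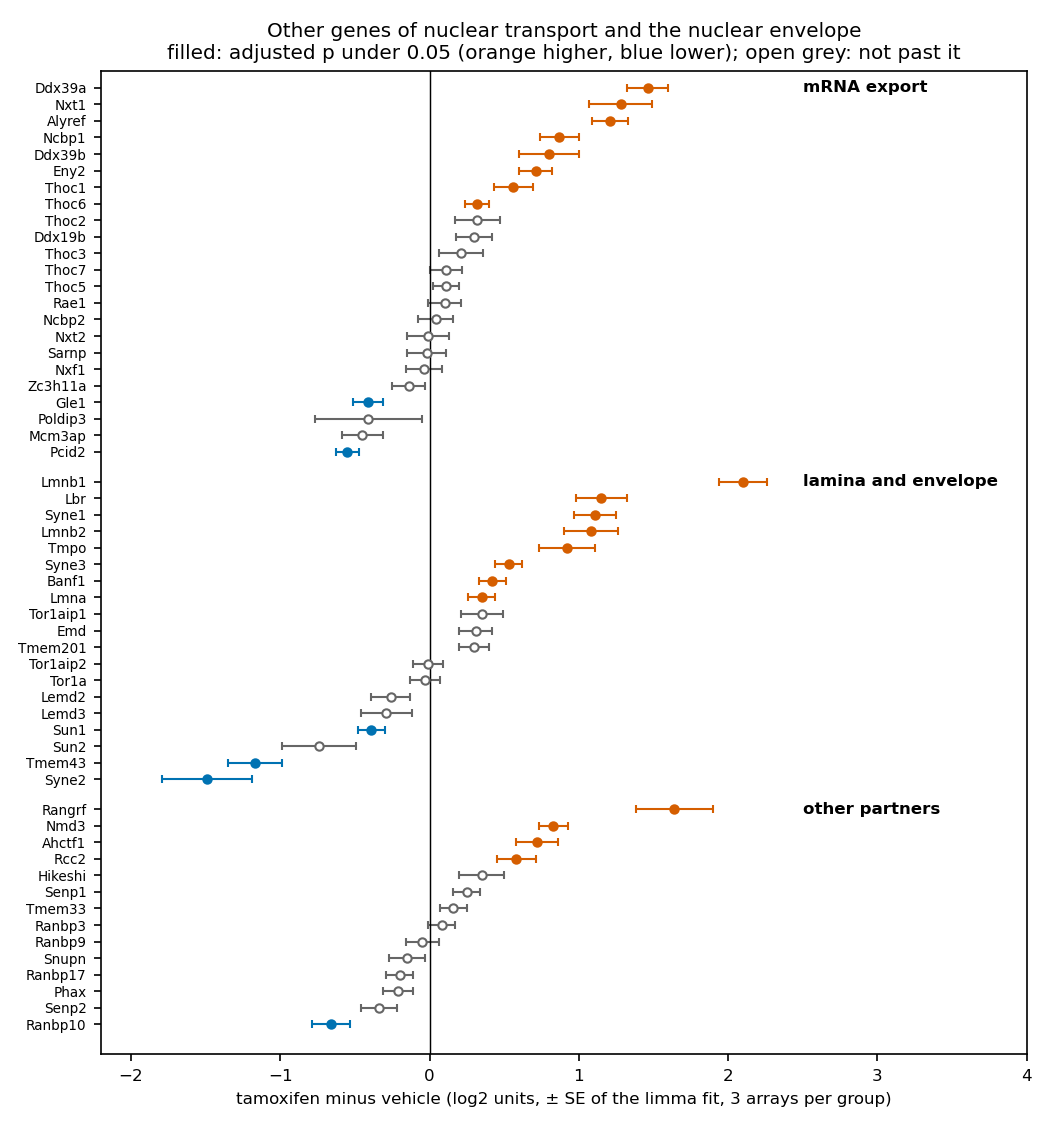
Difference between tamoxifen and vehicle (log2 units, horizontal axis) for the measured genes of 3 lists around the pore; points are differences of 3 against 3 arrays, bars are ± 1 standard error of the limma fit, and orange or blue marks genes that passed as higher or lower. Lmnb1 lies farthest right at 2.10 and Syne2 farthest left at -1.49, and each list has genes on both sides of 0.

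Genes of proliferation moved with the same contrast. Of 20 such genes 19 were measured. Against 13.9% of all genes, all 19 were higher, with a median of 1.83. Their mean level was 6.87 to 6.97 on the vehicle arrays and 8.37 to 9.40 on the tamoxifen arrays. Its part in the differences of the pore and transport genes was not tested.

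Of the Schwann cell markers, Sox10 had a mean of 11.58 and S100b of 13.11 with vehicle, while Gfra3 was at 5.87, 5.75 and 10.00 there and Mbp at a mean of 9.47. With tamoxifen Sox10 had a mean of 10.68, S100b of 12.35 and Mbp of 7.51, and Gfra3 was at 5.71, 5.82 and 7.90. Of the 9 measured, 5 were lower with tamoxifen and 0 higher, where over all genes 17.3% were lower and 13.9% higher. The 5 include S100b and Mbp but not Gfra3 or Sox10 (-0.90 ± 0.34, adjusted p of 0.104 in limma). Sox10 was at 12.41 on vehicle array 1 and at 11.09 and 11.26 on the other vehicle arrays. The mean level of the Schwann cell list ran from 10.89 to 11.54 with vehicle and from 10.00 to 10.16 with tamoxifen. Fibroblast markers were mixed: 2 of 9 were higher and 3 lower, the list's mean level was 7.96 to 8.07 with vehicle and 7.82 to 7.94 with tamoxifen, and the levels within the list were far apart. With vehicle, Col1a1 had a mean of 13.15, Col1a2 of 13.26 and Postn of 13.19, while Dcn had 4.05 and Lum 3.44. No macrophage, endothelial, smooth muscle, or lymphocyte and mast cell marker passed in limma (26 measured in all). At an unadjusted p under 0.05 in limma, 2 macrophage, 1 smooth muscle and 1 lymphocyte or mast cell marker were higher and 0 were lower. The shares over all genes at that threshold were 19.8% higher and 23.6% lower. The mean level of the macrophage list was 4.90 to 4.96 with vehicle and 4.98 to 5.03 with tamoxifen, that of the endothelial list 4.56 to 4.63 and 4.58 to 4.69, that of smooth muscle 5.96 to 6.38 and 5.97 to 6.34, and that of lymphocytes and mast cells 5.01 to 5.06 and 5.02 to 5.11. With vehicle, the smooth muscle markers Tagln and Acta2 had means of 9.51 and 7.53, while Rgs5 had 4.21 and Cnn1 4.51. Of 6 neuron markers 1 (Tubb3, by -2.39) was lower. The level of the neuron list was 7.72 to 8.28 with vehicle and 7.17 to 7.70 with tamoxifen. Within it, Nefl had a vehicle mean of 11.10 and Nefm of 11.11, while Snap25 had 4.18. The part of the cell type markers in the members' differences was not tested.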

How the data were processed

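The deposited values are log2 expression levels per probe set. Per the submitters' processing notes they were made with RMA (background correction, normalisation between arrays, 1 value per probe set), with no version stated in those notes. Its compression of low values can understate the differences of dim genes. Gene symbols came from the platform annotation: 20826 probe sets had 1 symbol, 436 several and 9780 none, and 57 manufacturer controls were left out. The 1 probe set with several symbols of which 1 fits the rule was not named. Groups came from the sample titles.

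The groups were compared by the moderated test of limma 3.58.1 (lmFit, then eBayes; R 4.3.3) (two-sided, all 6 arrays, no covariates, Benjamini-Hochberg over 31042 probe sets), after a test on simulated data. An exact permutation test of 3 against 3 cannot give a p below 0.1 and was not used.

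The members, the lists and the tests were chosen with earlier results of these data known. Values on all arrays are given for every Ran cycle gene, up to 3 members with the largest rise past the threshold in each other role, the brightest member of a role with none, and members whose probe sets differ in call. In each list up to 3 genes with the largest change in each direction are named. Other genes with values on all arrays or array ranges (Ipo8 and Tpr), single values (Pom121, Nup133, Nup50 and Nxf1) or markers were chosen after their values were seen.

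After subtraction of group means, arrays with the same experiment number correlated at 0.26, 0.20 and 0.28, so the numbers were taken as pairs, and a block for the experiment was added in an alternative fit. Others were leaving out arrays, other scalings, a filter on dim probe sets (mean log2 under 6), other variance models, array weights, other choices of probe set and a minimum fold. Protein sequences were not used here.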

Additional observations from a re-analysis of the deposited data

How the results depend on the processing

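The count of members that were higher was 26 as reported, 23 to 26 when 1 array was left out, 27 with the replicate block, 23 without experiment 1, 25 to 28 under the other scalings, variance models and weights, 27 of 54 after the filter on dim probe sets and 32 with averaged probe sets. In the test against a fold of 1.5 it was 7, since that asks for more than a difference from 0. The count of lower members was 0 to 1 when 1 array was left out, 1 with the replicate block and 0 in the other settings. Shares of all genes are not given for these alternative settings, so the counts have no such share beside them. The median difference of members ranged from 0.37 to 0.51. The calls of 22 of the 26 members held without each array in turn. The replicate block added Tnpo1 and Tpr and removed no member. It gave 7 higher and 3 lower genes of mRNA export, 7 and 4 of the lamina and envelope, and 4 and 1 of the other partners, without Thoc6 (adjusted p of 0.0512 in limma) and Lmna (0.06).

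With 1 array left out, mRNA export had 5 to 9 higher and 1 to 2 lower genes, the lamina and envelope 6 to 8 and 1 to 4, and the other partners 3 to 4 and 0 to 1. Eny2 turned from 0.71 to -0.12 without probe sets of the suffix _a_at, _s_at or _x_at. Lmna turned from 0.35 to -0.38 without them and to -0.02 with averaged probe sets. In both the brightest probe set carries such a suffix and another one disagrees with it. Dim probe sets and the 3 arrays per group limit what can be told.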
